A study of Mus musculus with 2 samples.

Results

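The interferon-stimulated genes Isg15, Ifit1, Ifit2, Ifit3, Rsad2, Oasl2, Ifitm3, Irf1 and Irf7 were followed in single cycling cells of the mouse cornea, as 9 of 31053 genes in the count matrix. They were chosen by their raw UMIs (unique molecular identifiers, 1 for each RNA molecule captured) per library and per band of the Krt12 share, by the number of them that single cells share at equal depth, and by their level in each epithelial lineage. Those values are therefore given as a description with no test. Tests were kept for the cell cycle, for Xist and Y-linked RNA, and for the other genes of the pathway.

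The cells were corneal epithelial cells of mice with the CycB1-GFP genotype, whose green fluorescent Cyclin B1 reporter marks cycling cells, and all samples shared this genotype. The epithelium was peeled from the cornea after Dispase digestion overnight in the cold, made into a suspension with trypsin, and sorted for live GFP-positive cells before 10x Genomics Chromium 3' v3 libraries were made. The labels give 1 group of 2 replicates with no treatment, and name no age, sex or number of animals. Because the gate took GFP-positive cells, cells outside the cell cycle were not sampled for their own sake. The 2 libraries in the matrix cannot be tied to the 2 replicate numbers, so they are called library 1 and library 2, and each is 1 sample.

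Interferons are secreted when a cell senses foreign or misplaced nucleic acid, and type I interferon is known to act through the receptor chains Ifnar1 and Ifnar2, the kinases Jak1 and Tyk2, and a transcription factor complex that holds Irf9. That complex binds the interferon-stimulated response element (ISRE), whereas interferon-gamma acts through the GAS element, and genes with either element switch on together. In barrier epithelia such as the cornea part of this program is also known to be present at a low level without infection.

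After cells with under 500 genes or with 20% or more mitochondrial UMIs were left out, 3187 cells of library 1 and 3001 cells of library 2 remained, with medians of 5571 and 5886 UMIs per cell. Among kept cells 4 barcode sequences occurred in both libraries. Krt12, the keratin of corneal epithelium, and Krt15, a keratin of limbal and conjunctival basal cells, ordered the cells: the Krt12 share of their summed UMIs was above 0.8 in 2304 and 1821 cells, from 0.4 to 0.8 in 161 and 164 cells, and under 0.4 in 663 and 959 cells. The remaining 59 and 57 cells held under 5 UMIs of both keratins. The bands followed several lineage markers, but not all of those listed. Gpha2, a limbal marker, stood at 687 and 1023 CPM (counts of the gene per 1e+06 UMIs) in the low bands and at 39.7 and 66.8 CPM in the high bands, and Krt4, a conjunctival keratin, at 358 and 567 CPM against 6.64 and 8.23 CPM. Col17a1, of the limbal list, went the other way, at 393 and 390 CPM in the low bands and 936 and 1010 CPM in the high bands. So did Aqp5, of the conjunctival list, at 101 and 79.5 CPM against 2354 and 3251 CPM. Immune-like cells, with 3 or more of 10 immune markers, numbered 5 and 17.

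Promoter sequences were read first, since 2 short elements define the response. Windows from 250 bases before to 50 bases after each start were searched on both strands for the ISRE core, GAAANNGAA, and for the GAS letters, TTCNNNGAA, in the RefSeq sequences of GRCm38.p6. All 9 members had a window, 11 windows in all. The ISRE core was found for 5 of 9 members, against 2812 of 32851 windows of all genes (8.56%), and the GAS letters for 3 of 9 members, against 8.30% of all windows. The stretches around the matches are shown because these elements define the family, each 5′ to 3′ on the gene's strand with the matches in capitals:
Isg15, chr4:156200861-156200911, minus strand: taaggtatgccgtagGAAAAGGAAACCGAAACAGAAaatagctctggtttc
Ifit1, chr19:34640765-34640828, plus strand: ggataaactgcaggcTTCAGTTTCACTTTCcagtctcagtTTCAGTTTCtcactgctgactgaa
Ifit3, chr19:34583359-34583450, plus strand: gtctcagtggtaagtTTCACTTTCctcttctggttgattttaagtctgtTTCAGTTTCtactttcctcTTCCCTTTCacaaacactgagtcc
Rsad2, chr12:26456548-26456586, minus strand: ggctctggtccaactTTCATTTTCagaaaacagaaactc
Ifitm3, chr7:141010715-141010744, minus strand: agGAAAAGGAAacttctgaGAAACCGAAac
Irf1, chr11:53769909-53769947, plus strand: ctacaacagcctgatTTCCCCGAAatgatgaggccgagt
Ifit2, chr19:34550444-34550476, plus strand: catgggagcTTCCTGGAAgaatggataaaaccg
Isg15, Ifit1 and Ifit3 each held 3 ISRE cores, which overlap one another in Isg15 and in part in Ifit1, and Rsad2 held 1. The Ifit1, Ifit3 and Rsad2 matches read on the opposite strand. The 2 Ifitm3 cores lay just after the start, and a GAS match in the same window overlapped the second of them. For Irf1 and Ifit2 the capitals mark the GAS letters, 90 and 241 bases before the start. Neither set of letters was in the windows of Oasl2 and Irf7. These matches describe the letters and were not tested as binding sites.

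In the GENCODE annotation of GRCm38 all 9 members are protein-coding genes. Ifit2 (ENSMUSG00000045932, chr19:34550694-34576419), Ifit3 (ENSMUSG00000074896, chr19:34583531-34588731) and Ifit1 (ENSMUSG00000034459, chr19:34640871-34650009) lie in 1 cluster, with 7.11 kb between the first pair and 52.1 kb from Ifit3 to Ifit1. Their proteins bind viral RNA. Ifitm3 (ENSMUSG00000025492, chr7:141009586-141010770), which blocks virus entry at endosomal membranes, lies 252 kb from Irf7 (ENSMUSG00000025498, chr7:141262706-141266481), the factor that amplifies type I interferon production. Isg15 (ENSMUSG00000035692, chr4:156199424-156200818) encodes a ubiquitin-like protein that is joined to other proteins. Rsad2 (ENSMUSG00000020641, chr12:26442746-26456452) encodes viperin, a radical SAM enzyme that blocks viral replication. Oasl2 (ENSMUSG00000029561, chr5:114896936-114912234) belongs to the 2′-5′ oligoadenylate synthetase family. Irf1 (ENSMUSG00000018899, chr11:53770014-53778374) is a transcription factor that responds strongly to interferon-gamma. Ifit1, Ifit3, Oasl2 and Ifitm3 have close copies in the mouse genome, and reads shared with a copy could be lost or split between them by the counting.

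Most members were several fold higher in library 2. Over all kept cells Isg15 stood at 54.8 CPM in library 1 (95% Poisson interval 51.5 to 58.3, 1029 UMIs) and at 179.5 CPM in library 2 (173 to 186, 3195 UMIs), a ratio of 3.28 (3.05 to 3.52). These intervals cover counting error only, and the difference between the libraries has no replicate check. Ifit1 went from 10.6 to 42.5 CPM between them, a ratio of 4.01. Ifit3 lay at 7.67 and 48.8 CPM, a ratio of 6.37. Rsad2 had the fewest UMIs of the members in library 1, 21 (1.12 CPM) against 253 UMIs (14.2 CPM) in library 2, a ratio of 12.7 (8.14 to 20.9). These 4 genes were all over 3 times as high in library 2. Irf7, at 15.8 and 50.5 CPM, and Oasl2, at 32.8 and 92.9 CPM, had ratios of 3.19 and 2.84. The other members differed less. Ifit2 lay at 7.08 and 10.7 CPM (ratio 1.51), and Irf1 at 36.4 and 50.3 CPM (ratio 1.38). Ifitm3, which had the most UMIs, went the other way, from 894 to 774 CPM (ratio 0.865).

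In all, 6 of 9 members were at least 2-fold higher in library 2, beside 324 of 11350 genes with 50 or more UMIs (2.85%). The median ratio was 3.19 for the members and 1.05 for all those genes. The members were chosen on this contrast, so the counts are a description. Leaving out cells that held 4 or more members (below) lowered the ratios of Isg15 to 2.61, Ifit1 to 3.72, Ifit3 to 4.47 and Rsad2 to 9.04, and the same 6 members stayed at least 2-fold higher.

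By lineage the members split into 2 patterns, which both libraries showed. Isg15, Ifit1, Ifit3, Rsad2 and Irf7 were highest in cells with a Krt12 share above 0.8, that is in cells of corneal type. Isg15 stood at 28.0, 18.6 and 64.9 CPM from the low to the high band of library 1, and at 122, 123 and 209.9 CPM in library 2, so the high band was 2.32 and 1.72 times the low band. Irf7 stood at 7.48 and 18.7 CPM in the low and high bands of library 1 and at 28.4 and 61.1 CPM in library 2, ratios of 2.50 and 2.15. Ifit1 had ratios of 2.59 and 2.74. For Ifit3 the ratios were 1.66 and 3.36, with 8.74 and 64.2 CPM in the high bands. Rsad2 was nearly confined to the high bands by count, with 20 of 21 UMIs in library 1 and 239 of 253 in library 2. It stood at 20.7 CPM in the high band of library 2 and at 2.19 CPM in the low band, a ratio of 9.47 (5.20 to 19.2). In library 1 the ratio was 5.21 on 20 and 1 UMIs, with an interval of 0.834 to 216 that includes 1.

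The second pattern was that of Ifitm3. From the low to the high band it stood at 1198, 1016 and 803 CPM in library 1 and at 1257, 1068 and 532 CPM in library 2, so the high band held 0.670 and 0.423 of the low band's level. Ifitm3 thus had nearly equal levels in the low bands of both libraries, and unequal levels in the high bands. Oasl2 and Irf1 followed neither pattern. Oasl2 stood at 28.8, 13.5 and 35.5 CPM in library 1 and at 112, 58.5 and 88.3 CPM in library 2, lowest in the middle band in both. Irf1 stood at 38.2, 26.2 and 36.8 CPM in library 1 and at 60.6, 38.1 and 46.6 CPM in library 2. Ifit2 had high-to-low ratios of 1.59 and 1.30 with intervals that include 1.

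**Figure D1:**
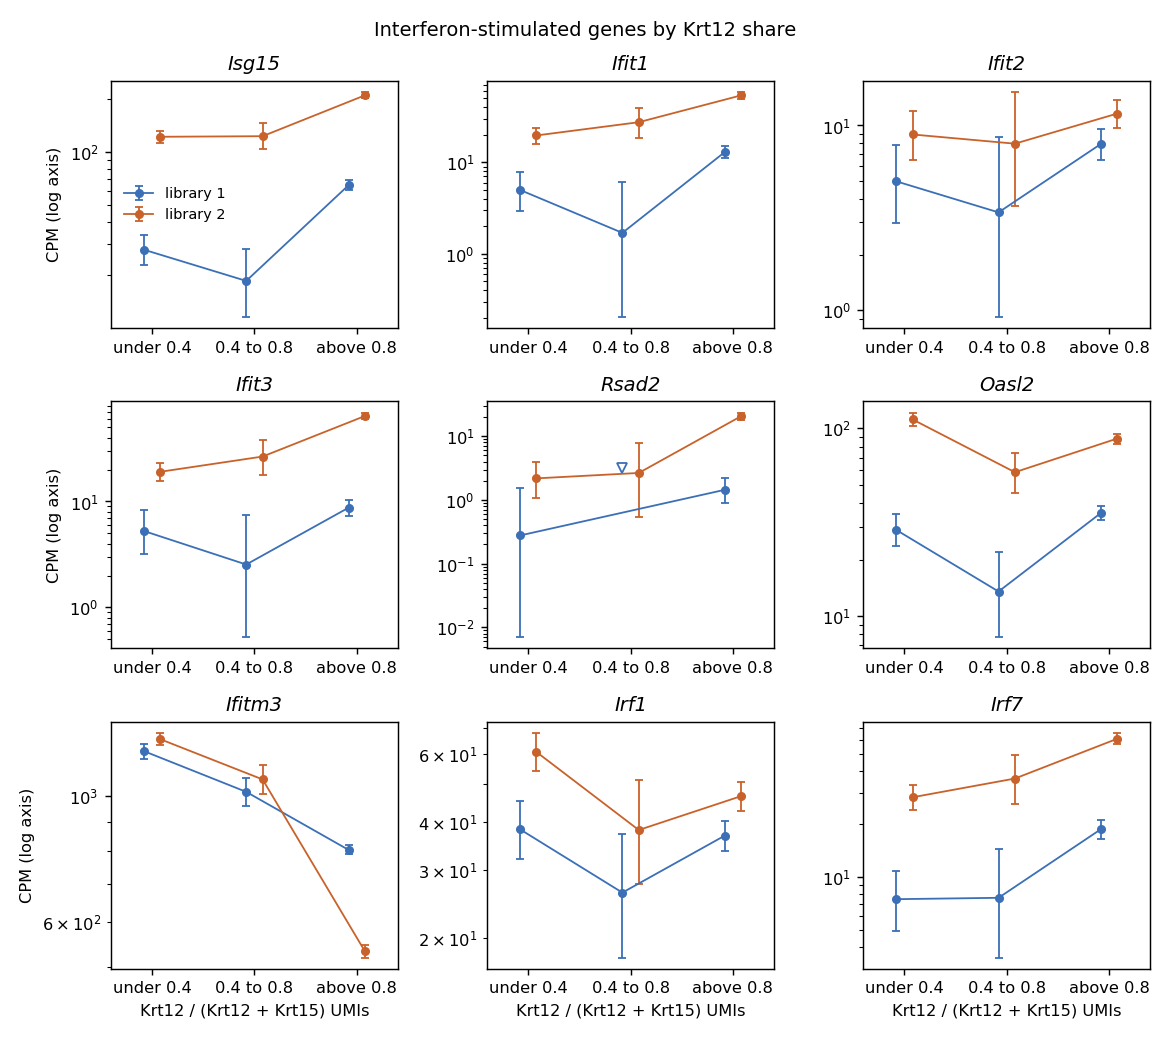
CPM of each member (log axis) in cells with a Krt12 share under 0.4, from 0.4 to 0.8 and above 0.8, in library 1 (blue) and library 2 (orange); bars are 95% Poisson intervals and an open triangle marks the upper limit where no UMI was found. Isg15, Ifit1, Ifit3, Rsad2 and Irf7 are highest above 0.8 in both libraries, and Ifitm3 is lowest there.

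Within the bands the levels were uneven. Just below and just above the limit of 0.8, in Krt12 shares of 0.7 to 0.8 and 0.8 to 0.9, Isg15 stood at 25.4 and 22.9 CPM in library 1 and at 111 and 162 CPM in library 2. In shares above 0.9 it stood at 67.6 and 213 CPM. Its highest bin lay lower on the scale in both libraries, at 0.2 to 0.3 in library 1 (96.4 CPM, 38 UMIs in 64 cells) and at 0.3 to 0.4 in library 2 (408 CPM, 70 UMIs in 29 cells). Ifit3 was highest in the same bins, at 12.7 CPM (5 UMIs) and 122 CPM (21 UMIs), against 9.23 and 63.4 CPM above 0.9. Irf7 was highest at 0.3 to 0.4 in library 2, at 81.7 CPM (14 UMIs) against 61.4 CPM above 0.9. Ifit1 and Rsad2 were highest above 0.9 in both libraries. Ifitm3 lay at 1066 and 767 CPM in library 1 and at 912 and 742 CPM in library 2 on either side of 0.8. Lower levels of Ifitm3 were not limited to shares above 0.8: in shares of 0.6 to 0.7 it already stood at 862 and 888 CPM, and its highest bins were 0.2 to 0.3 in library 1 (1373 CPM) and 0.4 to 0.5 in library 2 (1743 CPM).

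Within the low band, cells with 2 or more Gpha2 UMIs and no Krt13 or Krt4 (193 and 312 cells, limbal type) were set beside cells with 2 or more Krt13 or Krt4 UMIs and no Gpha2 (78 and 104 cells, conjunctival type), a split added after the values were seen. Ifitm3 was higher in the limbal-type cells, at 1259 against 988 CPM in library 1 and 1608 against 776 CPM in library 2. Isg15 had the higher CPM in the conjunctival-type cells of library 1, at 58.8 against 23.2 CPM, on 28 UMIs in 6 cells against 22 UMIs in 15. The share of cells with an Isg15 UMI was nearly equal there, at 7.69 and 7.77%. In library 2 its levels were close, at 154 against 139 CPM. The 22 immune-like cells held Ifitm3 at 438 and 855 CPM, on only 5 and 34 UMIs.

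Most members were seen in a minority of cells. At full depth Isg15 had a UMI in 18.9% of the cells of library 1 and 34.7% of those of library 2, and after thinning to 2000 UMIs in 8.04 and 20.4%. Rsad2 was the rarest, at 0.502 and 3.63% at full depth and 0.314 and 1.69% after thinning. Ifitm3 was the exception, with a UMI in 79.8 and 79.9% of cells at full depth and 65.9 and 63.1% after thinning, so most cells held it in both libraries.

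Single cells shared the members unevenly. Each cell with 2000 or more UMIs was thinned to 2000 UMIs, which left 2862 cells of library 1 and 2664 of library 2 and left out 325 and 337 shallower cells. In library 1, 761 cells held none of the 9 members, 1607 held 1, 396 held 2, 64 held 3 and 34 held 4 or more. In library 2 the numbers were 664, 1088, 526, 219 and 167, and the most members in 1 cell were 6 in library 1 and 9 in library 2. Cells with 4 or more members, called many-member cells here, made up 1.19% of library 1 (exact binomial interval 0.824 to 1.66%) and 6.27% of library 2 (5.38 to 7.26%). Of these, 24 and 113 cells stood exactly at the limit of 4. At full depth the shares were 5.37 and 21.1%. No cell class in the sort is known to lack these RNAs, so the share of cells that free RNA alone would give was not measured.

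**Figure D2:**
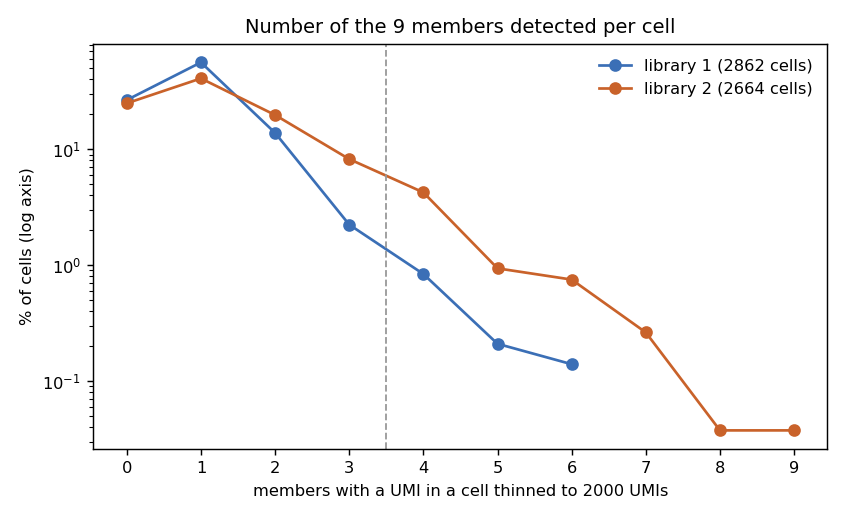
Share of cells (%, log axis) against the number of the 9 members with a UMI after thinning to 2000 UMIs, in library 1 (blue, 2862 cells) and library 2 (orange, 2664 cells); the dashed line marks the limit of 4 members. Library 2 lies above library 1 at every number from 2 members on.

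Many-member cells were found mainly among cells of corneal type in library 1, with 31 of 2039 cells above a Krt12 share of 0.8 and 3 of 642 below 0.4. In library 2 they occurred in both, with 113 of 1622 cells (6.97%) and 48 of 882 cells (5.44%). None was immune-like. Of 10 immune markers those of library 1 held no UMI of any and those of library 2 held UMIs of Cd74 and H2-Aa alone, summing to 43.3 CPM against 56.9 CPM over all kept cells, with Ptprc, Tyrobp, Fcer1g, Laptm5, Coro1a, Cd52, Cd3e and Lyz2 at 0. All 5 keratocyte and all 4 endothelial markers were at 0 in both libraries. Over all kept cells the keratocyte markers summed to only 0.266 and 0.112 CPM and the endothelial markers to 3.57 and 2.08 CPM. At such levels 0 UMIs in so few cells says little. Melanocyte markers summed to 5.42 and 3.53 CPM, against 3.52 and 5.79 CPM over all kept cells. Their median depth was 4840 UMIs in library 1 and 6294 in library 2, against 5844 and 6308 in cells with no member.

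The members differed in how far they came with the others. For each member, cells with 3 or more of the other 8 were compared with cells with none of the other 8. Isg15 was found in 53.4% of the former and 6.17% of the latter in library 1, and in 59.9 and 7.39% in library 2. Ifit3 was found in 16.3 and 0.653% in library 1 and in 25.5 and 1.63% in library 2. Ifit1 gave 18.4 and 0.523% in library 1 and 21.3 and 2.06% in library 2. Rsad2 was seldom seen without the others, with 34 of 378 cells against 1 of 665 in library 2, and 4 of 96 against 0 of 761 in library 1 (a count of 0 allows up to 3 cells). Of the 45 cells of library 2 with Rsad2, 71.1% held Isg15, 60.0% Ifit3, 53.3% Ifit1 and 84.4% Ifitm3. Oasl2, at 39.2 and 7.39%, and Irf7, at 24.6 and 3.63%, also came with the others in library 2.

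Irf1, Ifitm3 and Ifit2 were less tied to them. Irf1 was found in 18.5 and 6.74% of the 2 kinds of cell in library 2 and in 16.0 and 7.08% in library 1. Ifitm3 was in 56.7% of the cells of library 2 that held no other member, and in 80.7% of those with 3 or more. Ifit2 was found in 4.05 and 2.06% in library 2 and in 2.13 and 0.653% in library 1, with intervals that overlap. Ifit2 thus differed from its neighbours Ifit1 and Ifit3 both here and between the libraries. Cells of 1 library share their source, so these shares describe the libraries and were not tested.

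**Figure D3:**
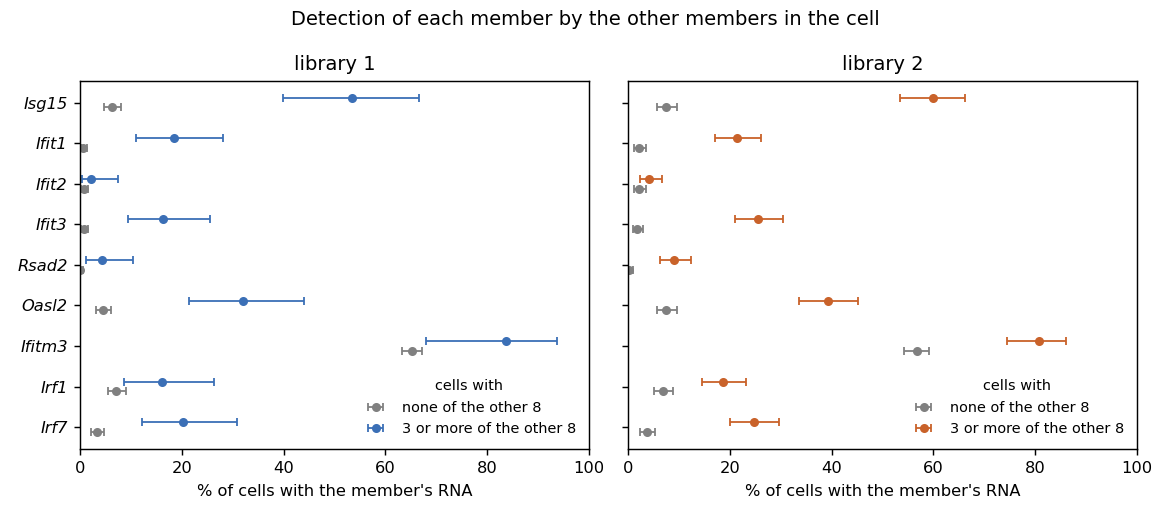
Share of thinned cells (%) with a UMI of each member among cells with none of the other 8 members (grey) and with 3 or more of them (coloured), in each library; bars are exact 95% binomial intervals. The intervals lie apart for Isg15, Ifit1, Ifit3, Rsad2, Oasl2, Irf7 and Ifitm3 in both libraries. For Irf1 they lie apart in library 2 alone, and for Ifit2 they overlap in both.

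The other genes of the pathway show what else the many-member cells held. In the high Krt12 band, 31 many-member cells of library 1 were set beside 642 cells with no member, and 113 beside 516 in library 2, with 1 sample on each side and no test. A gene was counted with 20 or more UMIs in the many-member cells alone. One scarce in cells with no member thus entered only if it was high in many-member cells, which raises the counts and ratios. At least 2-fold higher in many-member cells were 38 of 1272 counted genes in library 1 (2.99%) and 237 of 5431 in library 2 (4.36%). Against that background, antiviral effectors were at least 2-fold higher for 5 of 8 genes in library 1 (median ratio 3.68) and for 37 of 39 in library 2 (median 7.03). Antigen presentation genes, which carry peptides to the cell surface, counted 4 of 8 and 10 of 12, with medians of 2.15 and 3.46. Signal transducers counted 2 of 3 and 3 of 5, and the ISG15 conjugation genes 4 of 4 in library 2. Corneal markers counted 0 of 3 in library 1 and 0 of 5 in library 2, and conjunctival markers 0 of 1 and 2 of 3. In library 2 these were Krt13, at 128 against 39.8 CPM, and the mucin Muc4, at 96.3 against 13.8 CPM. In library 1, on fewer than 20 UMIs each, Muc4 stood at 92.7 against 10.8 CPM and Krt19 at 81.1 against 13.2 CPM. The part of lineage in the other ratios was not tested.

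In library 2 the 15 genes with the highest ratios were Ifit1bl1 (a close copy of Ifit1), Mx1, Cxcl10, Oasl1, Psca, Asprv1, Gm20234, Cmpk2, Iigp1, Zbp1, Gbp2, Slfn2, Ifi47, Ifi44 and Prss27. Mx1, a dynamin-like antiviral GTPase, stood at 36.4 CPM in the many-member cells and 0.866 CPM in cells with no member, on 31 and 3 UMIs. Such scarce genes entered the list only because they passed the UMI filter in the many-member cells. Zbp1, a sensor of Z-form nucleic acid, stood at 134 and 5.77 CPM, a ratio of 23.2. Slfn2, a Schlafen protein, stood at 277 and 14.4 CPM, a ratio of 19.2. Cmpk2, the neighbour of Rsad2 that makes nucleotide triphosphates, and the immunity GTPase Iigp1 had no UMI in cells with no member, and against a floor of 3 UMIs over those cells they were at least 31.2-fold and 28.5-fold higher. Psca, Asprv1 and Prss27 are no interferon genes of the lists, and Psca and Asprv1 stood at 319.5 and 510 CPM against 9.52 and 15.6 CPM.

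In library 1 the genes with the highest ratios included Psca, Bst2, Apol9a, Krt16, Spink5, Krt6b, Ifi27l2a, Phf11d, Samhd1, Samd9l, Irf9, Ifitm1, Clic3 and B2m. Bst2, which tethers budding virus, stood at 185 and 17.3 CPM, a ratio of 10.7. Irf9, part of the complex that binds the ISRE, stood at 116 and 32.3 CPM, a ratio of 3.59. Psca was high in both libraries, with 202.8 CPM on 35 UMIs in many-member cells of library 1 and 3 UMIs in all cells with no member. Krt16 and Krt6b, keratins of stressed or wounded epithelium, stood at 1280.3 and 939 CPM against 165 and 156 CPM. The lowest ratios were those of St13, Vdac3, Cdkn2d, Ubtf and Ndufa6 in library 1 and of Xist, Pknox1, Myh10, Pex13 and Zmiz1 in library 2, between 0.272 and 0.401.

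Xist, the RNA of the inactive X chromosome in female cells, moved with the classes in library 2, where 40.1% of many-member cells and 81.3% of cells with no member held an Xist UMI after thinning. In library 1 the shares were 52.9 and 39.0%. Within cells with an Xist UMI and within cells without one, added after the data were seen, 18 of 20 and 32 of 36 effectors of library 2 with 20 or more UMIs were at least 2-fold higher, with medians of 5.62 and 5.56. Integrated stress response genes, led by Chac1 at 57.6 against 8.08 CPM, counted 7 of 9 genes at least 2-fold higher in all such cells but 0 of 3 within cells with Xist and 3 of 7 within cells without it. The counts with Xist rest on 34 many-member cells against 433 with no member, and those without it on 79 against 83. No share over all genes is given beside these counts, so they cannot be set against a background. The UMI filter again used the many-member cells alone, and fewer genes of both lists passed it in these smaller classes. Whether the stress and interferon genes differ between the Xist classes was not tested.

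Xist also allowed a comparison that the choice of members had not used. Cells with a UMI of 4 Y-linked genes and none of Xist (573 and 375 cells) were set against cells with Xist and no Y-linked UMI (1832 and 2083 cells). In library 2 the cells with Y-linked RNA had the higher levels. Isg15 stood at 421 CPM in them and at 108 CPM in cells with Xist, Ifit3 at 124 and 24.5 CPM, Irf7 at 113 and 32.1 CPM, and Rsad2 at 54.6 and 2.61 CPM. In library 1 the order was reversed for several members, with Isg15 at 41.2 and 63.9 CPM, Irf7 at 12.7 and 18.4 CPM, Oasl2 at 26.3 and 36.1 CPM, and Ifitm3 at 592 and 1101 CPM. Ifitm3 in library 2 stood at 983 and 679.7 CPM. Ifit1 had the higher CPM with Y-linked RNA in both, at 17.6 and 9.62 CPM in library 1 and 114 and 22.0 CPM in library 2. In library 1 this rests on 65 UMIs in 21 cells with Y-linked RNA, against 102 UMIs in 91 cells with Xist. The share of cells with an Ifit1 UMI was lower with Y-linked RNA there, at 3.66 against 4.97%.

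No member passed the test of this contrast over both libraries with edgeR's quasi-likelihood test, in which 0 of 11398 genes were called higher (0%) and 1, Tsix, was called lower (0.00877%) once Xist and the Y-linked genes that define the classes were set aside. Rsad2 had a log2 fold change of 3.84 ± 0.57 (SE) and an adjusted p of 0.65 by edgeR. For Ifit1 it was 1.74 ± 0.43, with an adjusted p of 1.00. These 2 of 9 members lay under an unadjusted p of 0.05, and DESeq2 called 1, Rsad2. The difference between the libraries also depended on the class. Isg15 was 1.69 times as high in library 2 among cells with Xist and 10.2 times as high among cells with Y-linked RNA, Ifit3 2.71 and 17.0 times, and Irf1 1.33 and 1.41 times. Many-member cells made up 3.58% of cells with Xist and 13.8% of cells with Y-linked RNA in library 2, and 1.13 and 1.08% in library 1. How many animals each class holds is not named in the labels, so sex, animal and library cannot be told apart here.

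**Figure D4:**
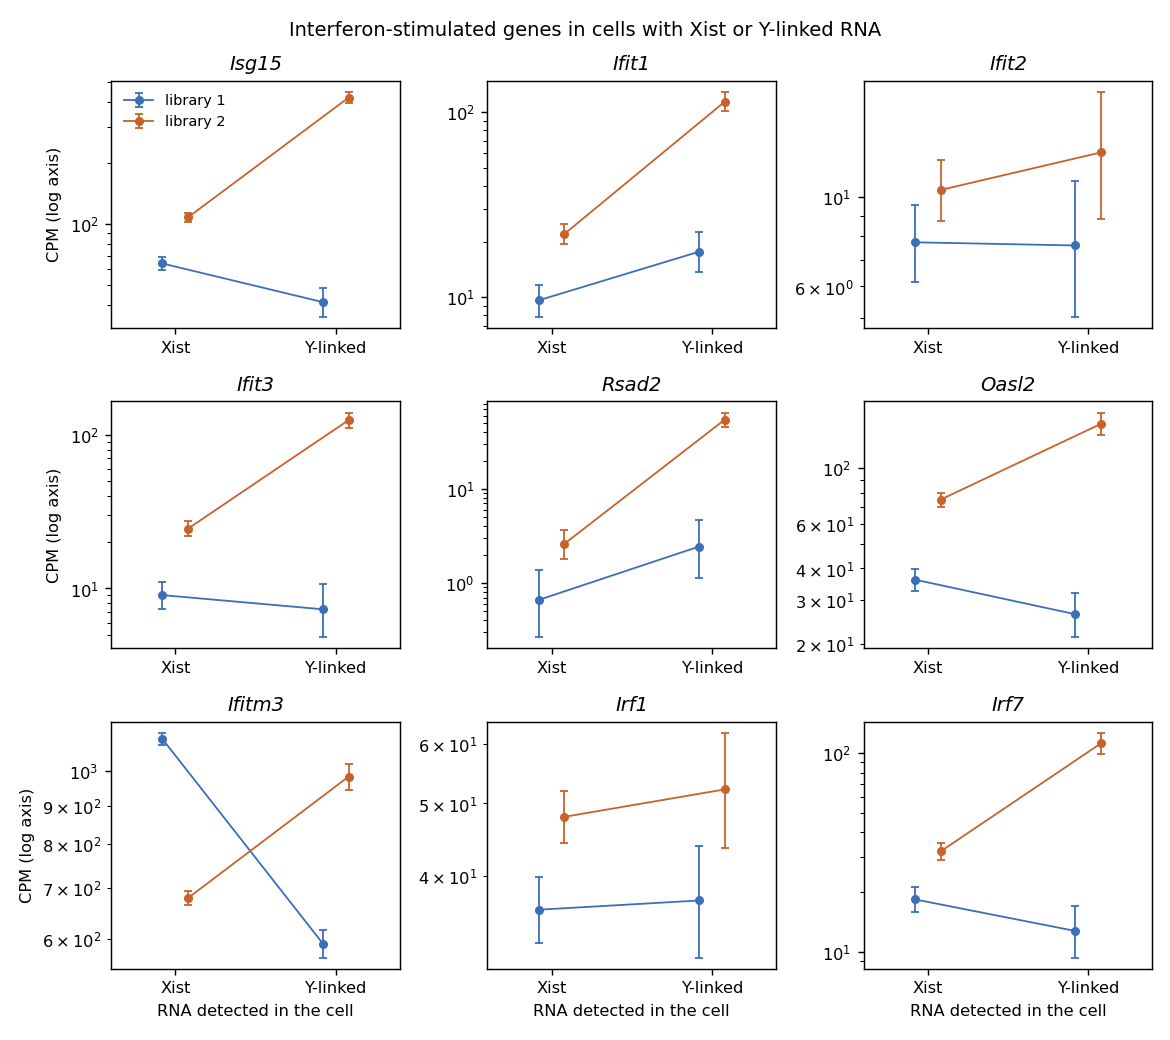
CPM of each member (log axis) in cells with Xist and no Y-linked UMI and in cells with a Y-linked and no Xist UMI, in library 1 (blue) and library 2 (orange); bars are 95% Poisson intervals. Isg15, Irf7, Oasl2 and Ifitm3 lie lower with Y-linked RNA in library 1 and higher in library 2.

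The cell cycle gave a second independent contrast. Cells were first divided by the share of G2 and mitosis UMIs (21 genes) among these plus S phase UMIs (24 genes), and a share above 0.7 (1764 and 1676 cells) was tested against one under 0.3 (273 and 205 cells). Isg15 alone of the members was called, higher in G2 and mitosis by 0.52 ± 0.12 on the log2 scale (adjusted p = 0.0027, edgeR's quasi-likelihood test), beside 7.95% of all genes called higher and 10.0% called lower. It stood at 38.9 and 49.96 CPM in library 1 and at 102 and 170.7 CPM in library 2. Ifit3 (0.66 ± 0.25, adjusted p = 0.0651) and Ifitm3 (-0.18 ± 0.06, adjusted p = 0.0502) did not pass. DESeq2 gave Isg15 an adjusted p of 0.061, and with bands of 0.2 and 0.8 it was not called.

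Among the other pathway genes 10 of 90 were called higher and 2 lower in G2 and mitosis, beside 7.95% and 10.0% of all genes. The pathway counts were 5 and 1 with DESeq2 and 0 and 1 without library as a block. Antigen presentation genes led, with 5 of 13 higher and none lower, among them B2m, the invariant chain of class I molecules, by 0.40 ± 0.10, and H2-K1 by 0.45 ± 0.08, H2-D1 by 0.37 ± 0.08 and Psmb9 by 0.53 ± 0.14. Of 43 antiviral effectors 3 were higher, near the share over all genes, and 1 was lower, with Ifi27l2a at 0.81 ± 0.08. Of the 10 sensors 1 was higher, the endosomal Tlr3 (0.61 ± 0.22), and 1 was lower, Mb21d1, which encodes cGAS (-1.49 ± 0.20). Receptors and transducers held no call, with Ifngr1 at -0.34 ± 0.14 and Jak1 at 0.04 ± 0.09 as their most abundant genes.

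A larger difference lay with the amount of cell cycle RNA, in a comparison added after the data were seen. Cells with 2 or fewer S, G2 and mitosis UMIs after thinning (98 and 142 cells) were tested against cells with 3 or more (2764 and 2522 cells). Isg15 stood at 122 against 51.1 CPM in library 1 and at 491 against 167 CPM in library 2. Ifit3 stood at 34.6 against 6.67 CPM and at 136 against 44.9 CPM, and Ifit1 at 18.3 against 10.0 CPM and at 132 against 39.1 CPM. Irf1 stood at 61.1 against 35.1 CPM and at 117 against 47.5 CPM. Cells with the least cell cycle RNA were thus the higher class for these members in both libraries.

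With edgeR's quasi-likelihood test 6 of 9 members were higher in cells with few cell cycle UMIs and none was lower, beside 11.0% of 11707 genes called higher and 10.6% called lower. Isg15 rose by 1.58 ± 0.15 on the log2 scale (adjusted p = 2.82e-24), Ifit3 by 1.93 ± 0.23 (adjusted p = 2.32e-15) and Ifit1 by 1.69 ± 0.24 (adjusted p = 2.34e-11). Irf1 rose by 1.24 ± 0.20, Oasl2 by 0.94 ± 0.19 and Irf7 by 0.92 ± 0.24. Rsad2 (0.70 ± 0.55), Ifitm3 (-0.16 ± 0.14) and Ifit2 (-1.79 ± 0.78, on 3 UMIs in the cells with few) did not pass. The many-member share was 5.10 against 1.05% in library 1 and 11.97 against 5.95% in library 2, and without many-member cells the same 6 members were called.

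Of the other pathway genes 31 of 92 were called higher in these cells and 3 lower, beside 11.0% and 10.6% of all genes. The pathway counts were 12 and 0 with DESeq2, 7 and 1 without library as a block, and 22 and 2 without many-member cells. Antiviral effectors made up most, with 22 of 44 higher and none lower, and a median of 0.72 on the log2 scale against -0.05 for all genes. Ifitm1, a neighbour and relative of Ifitm3 at the plasma membrane, was higher by 2.84 ± 0.16, Samd9l by 1.11 ± 0.17, Ifi35 by 0.65 ± 0.18 and Ifi27l2a by 0.42 ± 0.15. The interferon-gamma receptor chains Ifngr1 and Ifngr2 were higher by 0.71 ± 0.18 and 1.82 ± 0.26 and the interleukin-10 family receptor chain Il10rb by 1.06 ± 0.34. The sensors Zbp1 (1.45 ± 0.27), Dhx58 (1.46 ± 0.42) and Ifih1 (0.64 ± 0.25) were higher, and Mb21d1 was lower (-2.55 ± 0.56), at 0 against 19.7 CPM in library 1 and 5.63 against 22.2 CPM in library 2. Psmb8 and Tap2 were the antigen presentation genes called, at 0.79 ± 0.15 and 0.75 ± 0.28. Ube2l6, the conjugating enzyme of ISG15, was lower (-1.11 ± 0.43), at 2.04 against 12.6 CPM in library 1 and 14.1 against 27.3 CPM in library 2. In library 1 this level is 1 UMI in the cells with few, so the fold is uncertain. The chemokine Cxcl10 was also called lower, but on 1 UMI in the cells with few of library 1 and 0 in those of library 2, so no fold is given. Its levels were 2.04 against 3.59 CPM in library 1 and 0 against 13.1 CPM in library 2, and with 5 or fewer cell cycle UMIs it was called higher (1.42 on the log2 scale).

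Lineage moved with this class as well. All 5 genes of the conjunctival list were higher in cells with few cell cycle UMIs, with Krt13 at 3.94 ± 0.16 and Krt4 at 2.64 ± 0.14. Among them Aqp5 (1.55 ± 0.16) was itself higher in the high Krt12 band than in the low band (4.97 ± 0.38). Krt15 (1.71 ± 0.17) and the desmoglein Dsg1a (2.06 ± 0.20) were also higher with few cell cycle UMIs. Krt12 stood at 18321 against 10949 CPM in library 1 and at 23581 against 12237 CPM in library 2. No immune-like cell was among the cells with few, but only 3 and 6 were deep enough to be counted. Within the high Krt12 band alone the same 6 members were called, with Isg15 at 1.64 and Ifit3 at 2.00. Median depth was 4050 against 5947 UMIs in library 1 and 4246 against 6241 in library 2, and its part in the result was not tested. Without library as a block, 1 of the 6 calls was kept, that of Irf1 (1.27, adjusted p = 0.029).

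**Figure D5:**
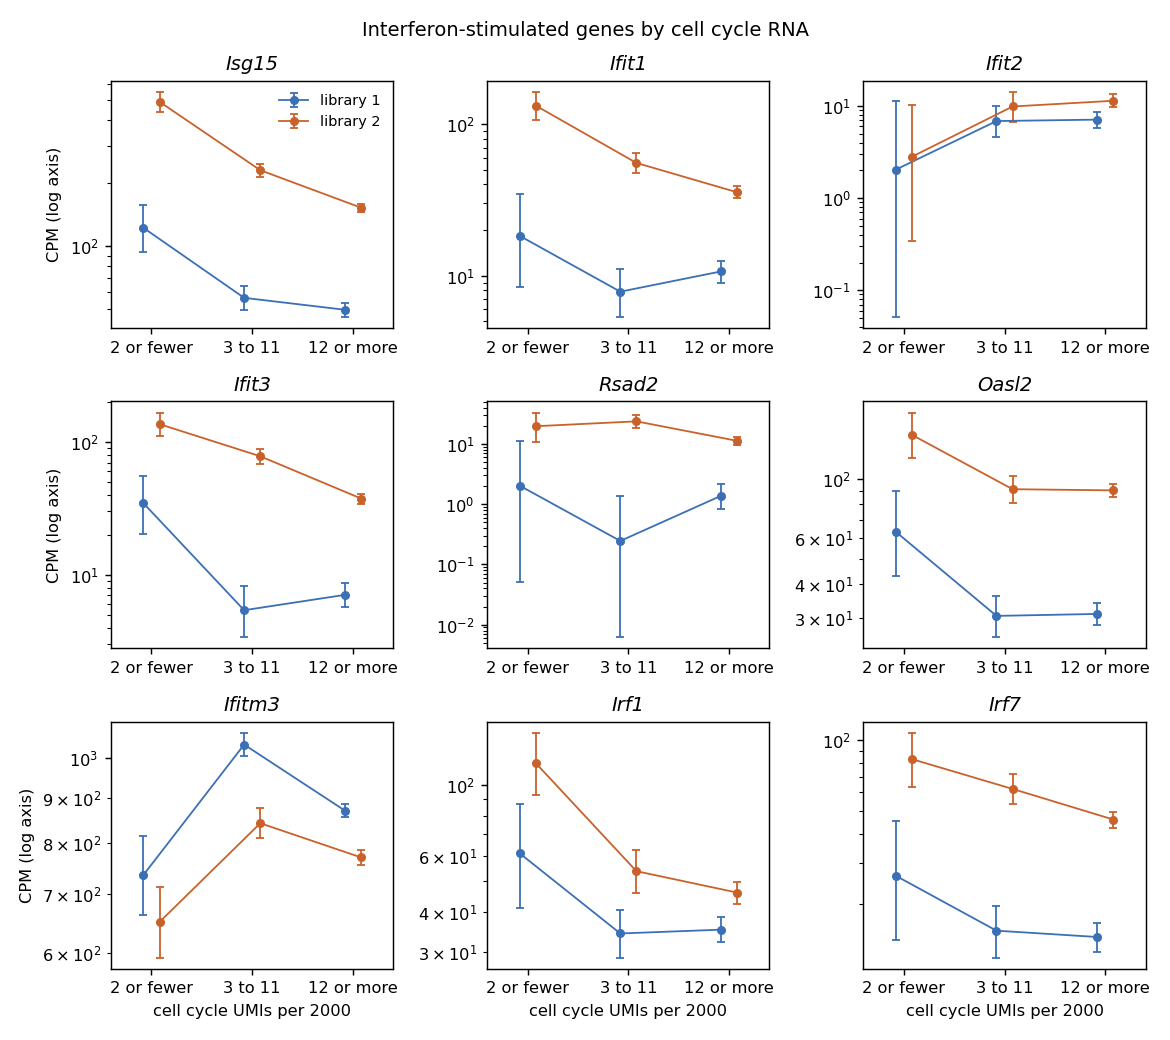
CPM of each member (log axis) in cells with 2 or fewer, 3 to 11 and 12 or more cell cycle UMIs among 2000, in library 1 (blue) and library 2 (orange); bars are 95% Poisson intervals. Isg15 lies at 122, 56.5 and 49.5 CPM in library 1 and at 491, 231 and 153 CPM in library 2, and Ifitm3 does not share this order.

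Between the Krt12 bands the rest of the pathway was tested, as the rule for the members used that contrast. The pathway lists were drawn up with earlier results of these data known. With edgeR's quasi-likelihood test 22 of 88 pathway genes were higher above 0.8 than under 0.4 and 21 were lower, beside 15.6% and 16.9% of 11138 genes called higher and lower. No interferon gene could be tested, as none of 11 ligands on the list had enough UMIs. Receptor chains were lower in cells of corneal type, with Ifngr2 at -1.07 ± 0.15, Ifnar2 at -0.64 ± 0.17 and Il10rb at -0.60 ± 0.19. Transducers were higher, with Jak1 at 1.03 ± 0.15, Tyk2 at 0.72 ± 0.28 and Irf9 at 0.52 ± 0.16. Thus 3 of 5 receptor genes fell and 3 of 6 transducer genes rose.

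Sensors were split. The cytosolic RNA sensors Ifih1 (0.70 ± 0.15) and Dhx58 (0.99 ± 0.28) and the DNA sensor Mb21d1 (0.48 ± 0.17) were higher in cells of corneal type, and the endosomal sensor Tlr3 was lower (-0.86 ± 0.15). Of 41 antiviral effectors 13 were higher and 6 lower. Ifitm1 and Ifitm2, neighbours of Ifitm3, were lower by 1.34 and 0.40 on the log2 scale (log2 fold changes -1.34 ± 0.07 and -0.40 ± 0.08), as Ifitm3 was in the description above. Ifi27 (0.77 ± 0.10) and Ifi35 (0.51 ± 0.11) were higher. Of the ISG15 pathway Usp18, which removes ISG15 and dampens receptor signalling, and Ube2l6 were higher by 1.00 ± 0.18 and 0.91 ± 0.18. The transcription factor Irf5 was lower (-1.14 ± 0.33).

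Antigen presentation went the opposite way, with 7 of 13 genes lower and none higher. B2m was lower by 1.14 ± 0.11 on the log2 scale in cells of corneal type (log2 fold change -1.14), H2-D1 had -0.97 ± 0.11, Psmb8 -0.70 ± 0.12 and Tapbp -0.44 ± 0.11. The chemokines Cxcl16 and Cxcl10 were lower too, at -2.10 ± 0.18 and -2.06 ± 0.26. Integrated stress response genes counted 4 of 10 higher and 1 lower, with Atf4 at 0.64 ± 0.09, Ppp1r15a at 0.94 ± 0.12, Asns at 0.82 ± 0.21 and Ddit4 at -0.52 ± 0.20. Immediate early genes, which respond within minutes to handling and growth signals, counted 6 of 10 higher, with Fos at 1.72 ± 0.09, Fosb at 1.43 ± 0.13, Junb at 0.88 ± 0.09 and Jun at 0.82 ± 0.12. Without many-member cells the pathway counts were 23 higher and 20 lower. Without library as a block they were 3 and 4.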

How the data were processed

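The authors deposited 1 aggregated 10x matrix of whole-number UMI counts, written by software version 3.1.0, per the file headers. Cell Ranger 3.1.0, Seurat 5.0.0 and GRCm38/mm10 are named in the submitters' processing notes, and whether depth was equalised between libraries is not given in the sources used here. Barcode endings gave 2 libraries (3458 and 3294 barcodes). Doublets were not called; the 3% of cells with the most UMIs were left out as an alternative. UMI sums per library and class were tested with edgeR 4.0.16 (quasi-likelihood, robust, TMM, filterByExpr, library as a block) in R 4.3.3, with Benjamini-Hochberg adjustment over all genes tested and a threshold of 0.05. DESeq2 1.42.0 was run as an alternative tool, and the fits were tested on simulated data. Sums of 1 library come from the same sample, and nothing in the labels says how many animals each replicate holds. The p-values therefore rest on the spread between the few sums of each fit and on dispersion shared across genes. They do not measure the spread between animals or between the cells of a class. The members and lists were chosen with earlier results of these data known. All 9 members are named, and of each pathway list up to 4 called genes with the highest mean CPM, or else its most abundant gene; for many-member cells, the 15 highest and 5 lowest ratios on at least 20 UMIs. Some genes that this rule picks are not reported here.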

Additional observations from a re-analysis of the deposited data

How the results depend on the processing

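The share of many-member cells, 1.19% in library 1 and 6.27% in library 2, was 2.35 and 14.1% after thinning to 4000 UMIs, 5.37 and 21.1% without thinning, 3.42 and 14.5% for 3 or more members and 0.349 and 2.03% for 5 or more; in each setting run library 2 was higher. Their mean of 3.73% ranged from 1.19 to 6.27% with 1 library left out. Pathway genes called higher between the Krt12 bands numbered 22, but 12 with DESeq2 and 3 without the replicate block, and those called lower 21, but 4 without the block. In each library alone all 22 and 21 kept their direction, with no test. Between cell cycle bands 1 member was called higher, but 0 with DESeq2, 0 with bands of 0.2 and 0.8, 0 without the block, 2 without many-member cells and 3 without a filter on low counts; 1 was called lower with bands of 0.2 and 0.8 and with a mitochondrial limit of 10%. With 1 library left out, the log2 ratio of the other ranged from -0.90 to 1.07 for Rsad2, from -0.32 to 0.20 for Irf1, from -0.0095 to 0.76 for Oasl2 and from -0.23 to 0.061 for Ifitm3. Between cells with Y-linked and with Xist RNA 0 members were called higher, but 1 with DESeq2 and 2 without a filter. There, with 1 library left out, the ratio ranged from -0.63 to 1.96 for Isg15, from -0.53 to 1.81 for Irf7, from -0.46 to 1.00 for Oasl2, from -0.31 to 2.34 for Ifit3, from -0.026 to 0.31 for Ifit2 and from -0.90 to 0.53 for Ifitm3. Ifit2 also turned with Xist UMIs after thinning (-0.11) and without many-member cells (-0.12). Of the 6 members called with few cell cycle UMIs 1 was called without the block, and 5 to 7 in the other settings. With 5 or fewer such UMIs Ifitm3 (0.050) and Cxcl10 (1.42) turned. The median of all genes there lay at -0.05 with edgeR and at 0.25 with DESeq2, which kept low genes. Over all genes, 1739 higher and 1884 lower between Krt12 bands became 768 and 999 with DESeq2 and 687 and 864 without the block. For cell cycle bands 906 and 1140 became 369 and 548, and 216 and 220, and 670 and 681 with bands of 0.2 and 0.8. For few cell cycle UMIs 1293 and 1239 became 598 and 401, and 633 and 636, and with the high Krt12 band alone 785 were lower. For Y-linked against Xist RNA 0 and 1 became 1 and 2 with DESeq2, 14 and 14 without a filter, 4 and 1 with Xist after thinning and 0 and 4 with a mitochondrial limit of 10%. The cause of these changes was not tested. With 2 libraries no spread between samples can be given for a library difference, and Rsad2 and Ifit2 are limited by counts in library 1.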
